A study of Mus musculus with 6 samples.

Results

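Cytochrome P450 enzymes were examined as a gene family in the optic nerves of injured and uninjured mice. Members were the genes of the expression table whose symbol starts with Cyp and a digit, without pseudogenes and without Cyp51. This rule kept 35 of 38 such symbols, out of 25755 genes in the table, in 13 families named by the first number of the symbol. Members were chosen by symbol alone and by no measured value, but the family was put forward with results of this comparison known, so counts over its members are descriptions. Whole-tissue RNA had been sequenced from the optic nerve of 6 mice, all NF1flox/flox;hGFAP-Cre and 3 months old when sampled. Sham surgery had been given to 3 of them (mice 1 to 3), and 3 had undergone optic nerve crush (ON-CR, mice 4 to 6) when 6 weeks old. Values per mouse are given below in the order of these numbers, as normalized values, with the ON-CR samples called crushed nerves. Both groups carried the same genotype, in which the human GFAP promoter drives Cre in neuroglial progenitors, so that Nf1 is lost in the glia and neurons that arise from them. The study reports that crush at this age led to optic gliomas in mice of this genotype by the age sampled here. The comparison asks which P450 genes differed in the nerve weeks after the injury, and the parts of injury and tumour cannot be told apart in it.

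P450 enzymes hold a haem iron and use it to insert an oxygen atom into a lipid, steroid or foreign compound. Most sit in the endoplasmic reticulum and take electrons from the reductase Por, while the mitochondrial members take them from the ferredoxin Fdx1 and its reductase Fdxr. In the nervous system they are best known for hydroxylating cholesterol so that it can leave the brain, for making and degrading lipid mediators from arachidonic acid, and for clearing retinoic acid.

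The feature that all of these enzymes share is the cysteine that binds the haem iron. A stretch of 30 coding bases around its codon was found in 34 of the 35 members, with TGC as the codon in 23 and TGT in 11. The search asked for a phenylalanine codon first, which 32 members had, and Cyp2b10 and Cyp2s1 matched only with any first codon. Cyp20a1 had no match. The members on which the results turn are printed 5′ to 3′ on the coding strand from GENCODE vM21 transcripts of GRCm38, with the cysteine codon in capitals.
Cyp7b1: tttggactcggaacaagcaaaTGTccaggg
Cyp39a1: tttggaggcgggaagttccagTGTcctgga
Cyp46a1: ttttccctgggccaccggtccTGCatcggc
Cyp27a1: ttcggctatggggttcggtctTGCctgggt
Cyp4f18: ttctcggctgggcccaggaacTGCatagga
Cyp4f15: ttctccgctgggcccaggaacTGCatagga
Cyp4f14: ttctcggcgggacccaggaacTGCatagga
Cyp2j12: ttctcattgggaaagagagctTGCcctgga
Cyp2j6: ttctcaatgggaaagcgagctTGCctggga
Cyp2s1: tactccttaggtaagcgagtcTGCctggga
The Cyp7b1 stretch lies in a coding exon at chr3:18072634-18072663 on the minus strand, that of Cyp39a1 at chr17:43731982-43732011 on the plus strand, that of Cyp46a1 at chr12:108361218-108361247 on the plus strand and that of Cyp27a1 at chr1:74737320-74737349 on the plus strand. The other 6 are split by an intron. Cyp4f15 and Cyp4f18 shared 29 of the 30 bases, Cyp4f14 and Cyp4f18 shared 28, and Cyp2j12 and Cyp2j6 shared 26. The 6 pairs among the 4 sterol enzymes shared 10 (Cyp39a1 and Cyp46a1) to 19 bases (Cyp7b1 and Cyp39a1). The most alike pair printed, Cyp4f18 and Cyp4f15, had fitted changes of opposite sign.

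The libraries held between 17414091 and 23621006 estimated reads on genes, with the 3 crushed nerves the least deep. Sex-linked genes differed too. Xist, from the inactive X chromosome, measured 16.7, 2.14 and 30.9 in the sham nerves against 2708, 6357 and 6131 in the crushed nerves, and the Y-linked Ddx3y 1645, 1291 and 1544 against 976, 4.19 and 0. The library of ON-CR mouse 4 thus held both Xist and Y-linked transcripts. Its label names mouse 4 alone, and whether it held RNA of other mice as well was not tested. That of ON-CR mouse 6 stood apart in plasma cell markers, whose sum over 5 genes was 97548 beside 71.8 to 1997 in the other 5. The labels give no sex, and since Xist was higher in every crushed nerve than in any sham nerve, the part of sex cannot be told apart from that of surgery. The summed value of 8 oligodendrocyte markers was 1289880 to 1844620 in the sham nerves against 628935 to 745099 in the crushed nerves, and 7 of the 8 fell. In whole tissue, fewer cells of a type and less RNA per cell cannot be told apart.

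Opposite directions were present among the P450 genes. Cyp7b1 and Cyp4f18 rose after ON-CR and Cyp2j12 and Cyp2s1 fell, at an adjusted p at or under 0.05 by limma over all genes. These 4 are 11.4% of the members, beside 2.10% of all genes, with 0.971% of all genes higher and 1.13% lower. Without an adjustment, 14 members had a p at or under 0.05, 3 higher and 11 lower, beside 15.6% of all genes, 7.37% higher and 8.22% lower. The study's methods give a filter for DESeq2 results, a p at or under 0.05 and a change of at least 2-fold. Applied here to the unadjusted p of the limma fit, it passed Cyp4f18 upward and Cyp2s1, Cyp46a1, Cyp17a1, Cyp2t4 and Cyp2e1 downward. These are 6 members, beside 4.66% of all genes, 3.17% upward and 1.49% downward. The stricter filter that the study states for its pathways was not applied here. For 13 members the ranges of sham and crushed nerves were separate, 11 lower and 2 higher, beside 21.6% of all genes in either direction and 11.0% of all genes lower.

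Of the 35 members, 29 had a mean value over the 6 libraries of at least 10, and 22 of at least 50. Among the 29, 20 had a lower and 9 a higher fitted value after ON-CR. That is 69.0% lower, beside 48.1% of the 19650 genes with such a mean. The median log2 fold change of the 29 was -0.31, beside 0.02 over those 19650 genes. Taken library by library against the sham mean, the median member stood at 0.10, -0.0033 and -0.13 on the log2 scale in sham mice 1, 2 and 3, and at -0.31, -0.41 and -0.16 in ON-CR mice 4, 5 and 6. All 3 ON-CR libraries were therefore below all 3 sham libraries, with ON-CR mouse 6 close to sham mouse 3.

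**Figure D1:**
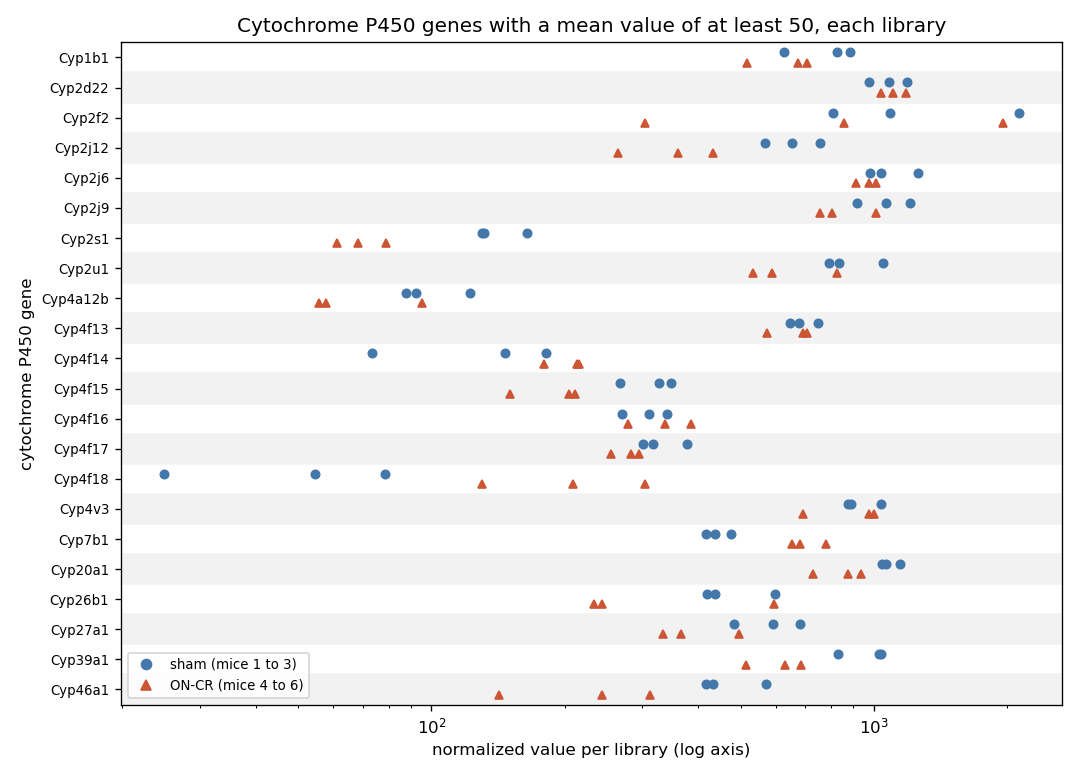
Normalized values (log axis) of the 22 cytochrome P450 genes with a mean of at least 50, in order of family, with circles for sham mice and triangles for ON-CR mice. The groups are apart for Cyp7b1, Cyp4f18, Cyp2j12 and Cyp2s1, while the values of Cyp2d22 and Cyp4f13 are intermingled.

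Among the 4 sterol-hydroxylating members Cyp7b1 rose, while Cyp39a1, Cyp46a1 and Cyp27a1 had lower fitted values that missed the threshold. Cyp7b1 (ENSMUSG00000039519.6, chr3:18071950-18243338) encodes the hydroxylase that acts on oxysterols made by Ch25h and Cyp27a1. It measured 438, 418 and 476 in the sham nerves against 683, 655 and 780 in the crushed nerves. The lowest ON-CR value was well above the highest sham value. Cyp7b1 rose from 444 ± 29.7 to 706 ± 65.4 (SD, n = 3 per group), with a log2 fold change of 0.67, a standard error of 0.13 and a limma adjusted p of 0.0310. The summed value of 8 astrocyte markers was 209246 to 258352 in the sham nerves against 280129 to 309326 in the crushed nerves. Gfap alone made 99186 to 123408 of it in the sham nerves and 156465 to 202957 in the crushed nerves. By limma 0 of the 8 passed the test and 4 had an unadjusted p at or under 0.05, Gfap, Aqp4 and Slc1a3 higher and Aldoc lower. In fitted value 5 of the 8 were higher. The summed value of 8 microglia markers was 15320 to 19675 in the sham nerves against 19396 to 29403 in the crushed nerves. Of these 8, 6 were higher in fitted value, while P2ry12 and Tmem119 were lower. The part of these markers in the rise of Cyp7b1 was not tested.

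Cyp39a1 (chr17:43667425-43751431) hydroxylates the oxysterol that Cyp46a1 makes. It measured 1037, 1029 and 831 in the sham nerves against 686, 515 and 629 in the crushed nerves. The groups did not overlap, with a log2 fold change of -0.66 and a standard error of 0.15, but the adjusted p of 0.0545 by limma missed the threshold. Per kilobase of exon, the ratio of Cyp7b1 to Cyp39a1 was 0.596, 0.573 and 0.808 in the sham nerves against 1.40, 1.79 and 1.75 in the crushed nerves. Cyp39a1 was thus the higher of the pair in every sham library and Cyp7b1 in every ON-CR library, a pairing chosen after the values were seen and not tested.

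Cyp46a1 (chr12:108334381-108362234), which converts cholesterol to its main brain oxysterol and is best known from neurons, measured 434, 572 and 417 in the sham nerves against 312, 243 and 142 in the crushed nerves. No ON-CR mouse reached the lowest sham value. Its mean after ON-CR was 49.0% of that in sham mice, with a log2 fold change of -1.08 (95% interval -1.67 to -0.50, adjusted p = 0.0718 by limma). The summed value of 8 neuron markers was 4357, 1736 and 1356 in the sham nerves against 1449, 9881 and 2642 in the crushed nerves, highest in sham mouse 1 and ON-CR mouse 5, and its part in the values of Cyp46a1 was not tested. Cyp27a1, the mitochondrial sterol hydroxylase, measured 591, 682 and 484 in the sham nerves against 497, 333 and 367 in the crushed nerves. ON-CR mouse 4 overlapped the sham range, and the adjusted p by limma was 0.173.

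The enzymes that work on the same sterols included a further rise. Ch25h, a cholesterol hydroxylase that is not a P450 and is induced in macrophages, measured 29.5, 36.3 and 28.2 in the sham nerves against 242, 110 and 139 in the crushed nerves. Ch25h rose from 31.3 ± 4.36 to 164 ± 69.5 (SD, n = 3 per group), with a log2 fold change of 2.28, a standard error of 0.32 and a limma adjusted p of 0.00661. Hsd3b7, which acts after Cyp7b1 and Cyp39a1, had a log2 fold change of 0.17 (95% interval -0.27 to 0.61, adjusted p = 0.745 by limma). Of the 5 oxysterol partner genes, Ch25h alone passed the test, and their median log2 fold change was 0.17.

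**Figure D2:**
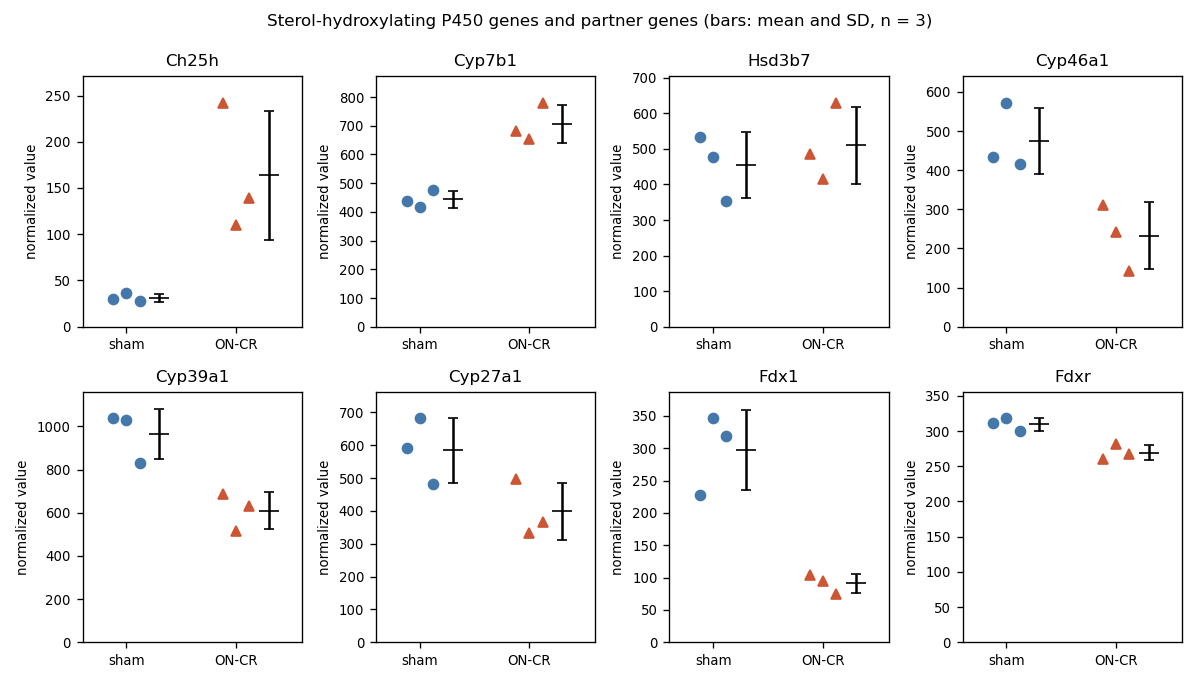
Normalized values per mouse for sterol-hydroxylating P450 genes and the partner genes Ch25h, Hsd3b7, Fdx1 and Fdxr, each axis from 0, with the mean and SD of 3 mice beside the points. Ch25h and Cyp7b1 are higher in all 3 ON-CR mice, while Cyp46a1, Cyp39a1, Fdx1 and, by a smaller margin, Fdxr are lower in all 3.

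Of the electron donors, Fdx1 fell, while Por and Fdxr did not pass the test. Fdx1, the ferredoxin that serves mitochondrial P450s such as Cyp27a1, measured 228, 346 and 319 in the sham nerves against 104, 95.4 and 74.8 in the crushed nerves. Fdx1 fell by 1.69 on the log2 scale, with a standard error of 0.22 and a limma adjusted p of 0.00503. Its reductase Fdxr was at 310 ± 9.32 in the sham nerves against 269 ± 10.6 in the crushed nerves (SD, n = 3 per group), without overlap and with an adjusted p of 0.535 by limma. Por, the reductase of the microsomal members, had a log2 fold change of 0.00 (95% interval -0.24 to 0.25). Of 8 redox partner genes, Fdx1 alone passed the test, with a median of -0.23.

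Family 4, the fatty acid and eicosanoid hydroxylases, had no common direction. Of its 11 members, 10 had a mean of at least 10, of which 5 were higher and 5 lower, with a median log2 fold change of 0.02. Cyp4f18 (ENSMUSG00000003484.4, chr8:71988482-72009626), which inactivates leukotrienes in leukocytes, measured 78.5, 24.8 and 54.5 in the sham nerves against 209, 130 and 304 in the crushed nerves. Every ON-CR mouse was above every sham mouse, with a wide spread in both groups. Cyp4f18 rose from 52.6 ± 26.9 to 215 ± 87.2 (SD, n = 3 per group), with a log2 fold change of 2.07, a standard error of 0.42 and a limma adjusted p of 0.0378, which became 0.0536 with robust moderation. The summed value of 8 microglia markers was 19675, 17562 and 15320 in the sham nerves against 28943, 19396 and 29403 in the crushed nerves, with Aif1 and C1qa rising. In fitted value 6 of the 8 were higher. P2ry12 and Tmem119 were lower, with log2 fold changes of -0.35 and -0.27, and did not pass the test. The sum of the plasma cell markers was 1053, 217 and 1997 in the sham nerves against 957, 71.8 and 97548 in the crushed nerves. ON-CR mouse 6 was the highest and sham mouse 2 and ON-CR mouse 5 were the lowest of their groups for both these markers and Cyp4f18. The part of either marker list in the rise of Cyp4f18 was not tested. Exons of Cyp4f18 overlap those of Zfp961 on the opposite strand, and whether the counting used strand is not given in the sources used here.

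The other members of the Cyp4f subfamily lie together on chromosome 17. Cyp4f15 measured 327, 349 and 267 in the sham nerves against 211, 205 and 151 in the crushed nerves, without overlap, and its adjusted p by limma was 0.0827. Cyp4f14, a hydroxylase of leukotrienes and vitamin E, measured 181, 147 and 73.3 in the sham nerves against 215, 213 and 180 in the crushed nerves, with an adjusted p of 0.309 by limma. The highest sham value of Cyp4f14 just passed the lowest ON-CR value. Cyp4f17 was at 332 ± 41.1 and 277 ± 20.6 (SD, n = 3 per group) in sham and ON-CR mice, Cyp4f16 at 307 ± 35.9 and 334 ± 53.8, and Cyp4f13 at 691 ± 51.1 and 658 ± 73.6. Of these 3, Cyp4f17 did not overlap between the groups, and none passed the test. Cyp4f39 was at or near the limit of detection, with values from 0 to 4.43. Up to 17.4% of the 50-base words in the Cyp4f16 transcripts also occur in other genes, so its reads could be divided between genes.

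Cyp4v3, the mouse counterpart of a retinal fatty acid hydroxylase, was at 936 ± 91.6 in the sham nerves against 891 ± 172 in the crushed nerves (SD, n = 3 per group). Its log2 fold change was -0.09, with a 95% interval from -0.44 to 0.27, and 7.02% of its 50-base words occur in other genes. Cyp4a12b, a fatty acid hydroxylase, measured 122, 87.7 and 92.0 in the sham nerves against 57.8, 55.6 and 95 in the crushed nerves, with overlap, and 49.4% of its 50-base words are shared with other genes. Cyp4x1, which is known from brain, measured 30.8, 6.74 and 7.51 in the sham nerves against 6.98, 78.6 and 21.7 in the crushed nerves. Sham mouse 1 and ON-CR mouse 5 were the highest for Cyp4x1 and were also the highest for the neuron markers given above, whose part was not tested.

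Arachidonic acid epoxygenases of the Cyp2j subfamily were lower in fitted value throughout, and Cyp2j12 passed the test. Cyp2j12 (ENSMUSG00000081225.3, chr4:96099318-96141152) measured 754, 653 and 568 in the sham nerves against 434, 264 and 361 in the crushed nerves. The groups were well apart. Cyp2j12 fell from 658 ± 93.3 to 353 ± 85.1 (SD, n = 3 per group), by 0.92 on the log2 scale, with a standard error of 0.19 and a limma adjusted p of 0.0414, which became 0.0538 with scaling by library size alone. Its neighbour Cyp2j9 was at 1065 ± 148 and 858 ± 136 (SD, n = 3 per group), and Cyp2j6 at 1093 ± 148 and 967 ± 50.4. The log2 fold change of Cyp2j6 had a 95% interval from -0.46 to 0.12, and that of Cyp2j9 from -0.65 to 0.02. Cyp2j13 was detected at values from 0 to 5.31. Among genes that act on the products, the epoxide hydrolase Ephx2 measured 594, 537 and 581 in the sham nerves against 359, 424 and 409 in the crushed nerves, with an adjusted p of 0.0783 by limma.

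Cyp2s1 (ENSMUSG00000040703.11, chr7:25802475-25816913), a P450 of epithelia and other tissues outside the liver, measured 132, 130 and 164 in the sham nerves against 78.8, 68.1 and 61.3 in the crushed nerves. The highest ON-CR value was well below the lowest sham value. Cyp2s1 fell from 142 ± 19.3 to 69.4 ± 8.82 (SD, n = 3 per group), by 1.02 on the log2 scale, with a standard error of 0.22 and a limma adjusted p of 0.0439, which became 0.0812 with scaling by library size alone. Exons of the non-coding gene Gm26707 overlap it on the opposite strand. Like the oligodendrocyte markers given above, the fallers Cyp2j12 and Cyp2s1 were lower in the crushed nerves. Within each group the order of the mice for Cyp2j12 was that of the marker sum, and for Cyp2s1 it was not. Sham mouse 3 had the highest Cyp2s1 value but the lowest sum of the sham mice, 1289880. ON-CR mouse 6 had the lowest Cyp2s1 value, while ON-CR mouse 5 had the lowest sum, 628935. The part of these markers was not tested.

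**Figure D3:**
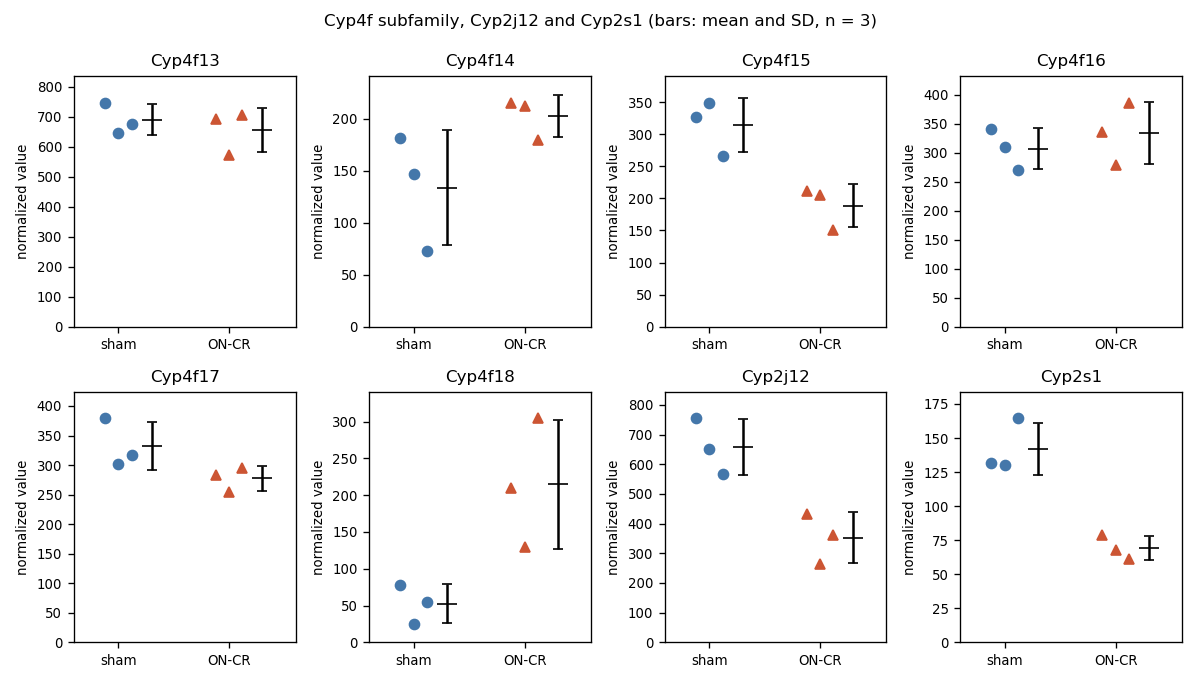
Normalized values per mouse for 6 Cyp4f genes, Cyp2j12 and Cyp2s1, each axis from 0, with the mean and SD of 3 mice beside the points. Cyp4f18 is higher and Cyp4f15, Cyp4f17, Cyp2j12 and Cyp2s1 are lower in all 3 ON-CR mice, while Cyp4f13 and Cyp4f16 overlap.

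Family 2 as a whole held 13 members, 11 with a mean of at least 10, and their median log2 fold change was -0.46, with 8 lower and 3 higher. Cyp2u1, a fatty acid hydroxylase known from brain, was at 893 ± 137 in the sham nerves against 650 ± 156 in the crushed nerves (SD, n = 3 per group), with overlap and an adjusted p of 0.240 by limma. Cyp2e1, the ethanol-inducible P450, measured 43.9, 39.0 and 24.8 in the sham nerves against 20.1, 17.3 and 10.4 in the crushed nerves. All ON-CR values were below the sham values, with an adjusted p of 0.214 by limma. Cyp2t4 measured 25.5, 9.74 and 15.0 in the sham nerves against 0, 5.24 and 4.15 in the crushed nerves. Cyp2d22, a drug-metabolizing enzyme also found in brain, was at 1082 ± 104 and 1108 ± 72.9 (SD, n = 3 per group), and its log2 fold change of 0.04 had a 95% interval from -0.23 to 0.31.

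Other members of family 2 varied more between mice than between groups. Cyp2f2, an airway epithelial P450, measured 1089, 809 and 2135 in the sham nerves against 304, 1961 and 855 in the crushed nerves. Cyp2a5, a P450 of liver and olfactory mucosa, measured 7.43, 1.77 and 44.1 in the sham nerves against 1.99, 35.6 and 18.7 in the crushed nerves. Sham mouse 3 and ON-CR mouse 5 were the highest for both genes. Of 10 airway and olfactory markers, 9 were in the table, and their summed value was 193, 102.2 and 7908 in the sham nerves against 151, 5536 and 6261 in the crushed nerves, with Bpifa1 at 0 in sham mouse 2 and ON-CR mouse 4. Bpifa1 alone made 7568, 4579 and 5894 of the sum in sham mouse 3 and ON-CR mice 5 and 6. Bpifb1 and Sec14l3 were also highest in these mice, while Foxj1, Ltf, Omp and Scgb3a2 did not follow the sum. The part of airway and olfactory tissue in the values of Cyp2f2 and Cyp2a5 was not tested. Cyp4b1 of family 4, which is abundant in lung, ranged from 5.31 to 35.3 and was also highest in sham mouse 3. Cyp2b10 ranged from 17 to 68.6. Cyp2a5 shared 37.0% of its 50-base words with other genes, Cyp2b10 8.70% and Cyp4b1 8.26%.

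**Figure D4:**
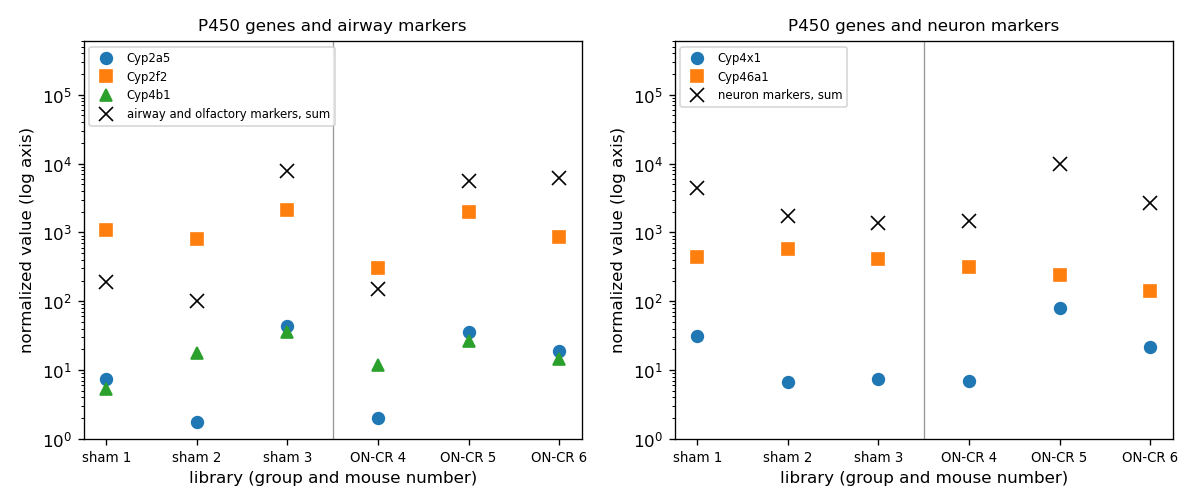
Normalized values (log axis) in each of the 6 mice for Cyp2a5, Cyp2f2 and Cyp4b1 with the summed airway and olfactory markers on the left, and for Cyp4x1 and Cyp46a1 with the summed neuron markers on the right. Cyp2a5 is highest in sham mouse 3 and ON-CR mice 5 and 6, the mice in which the airway markers sum to 5536 or more.

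Among the members not described above, retinoid, steroid and vitamin D enzymes were low, apart from Cyp26b1 and Cyp1b1. Cyp26b1, which degrades retinoic acid, measured 437, 421 and 598 in the sham nerves against 595, 243 and 234 in the crushed nerves. ON-CR mouse 4 was level with the highest sham mouse while ON-CR mice 5 and 6 were below all sham mice. Its adjusted p by limma was 0.436 over all mice and 0.0366 without ON-CR mouse 4. That mouse also differed from ON-CR mice 5 and 6 in Y-linked transcripts, with Ddx3y at 976 against 4.19 and 0. The part of sex in the values of Cyp26b1 was not tested. Cyp1b1, a target of the aryl hydrocarbon receptor, measured 828, 627 and 886 in the sham nerves against 674, 517 and 708 in the crushed nerves, with overlap and a limma adjusted p of 0.444. The receptor gene Ahr measured 27.6, 13.3 and 19.7 in the sham nerves against 53.8, 41.9 and 64.4 in the crushed nerves, without overlap and with an adjusted p of 0.0926 by limma.

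Cyp2r1, which activates vitamin D in liver, was at 7.44 ± 1.84 in the sham nerves against 14.0 ± 6.93 in the crushed nerves (SD, n = 3 per group). Cyp24a1, which degrades vitamin D, reached at most 4.70. Cyp17a1, a steroid hydroxylase, measured 2.12, 12.4 and 7.51 in the sham nerves against 0, 1.05 and 0 in the crushed nerves, so the ON-CR mice were under the floor of 3 reads. Cyp11a1, which starts steroid synthesis in mitochondria, measured 6.02, 10.6 and 1.88 in the sham nerves against 0, 1.05 and 2.08 in the crushed nerves. Cyp3a13, a drug-metabolizing enzyme, measured 15.9, 30.1 and 14.1 in the sham nerves against 4.99, 9.44 and 13.5 in the crushed nerves, without overlap and with an adjusted p of 0.368 by limma. Cyp20a1, whose substrate is unknown, measured 1066, 1150 and 1042 in the sham nerves against 873, 728 and 935 in the crushed nerves. These did not overlap, and the adjusted p of Cyp20a1 was 0.194 by limma.

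**Figure D5:**
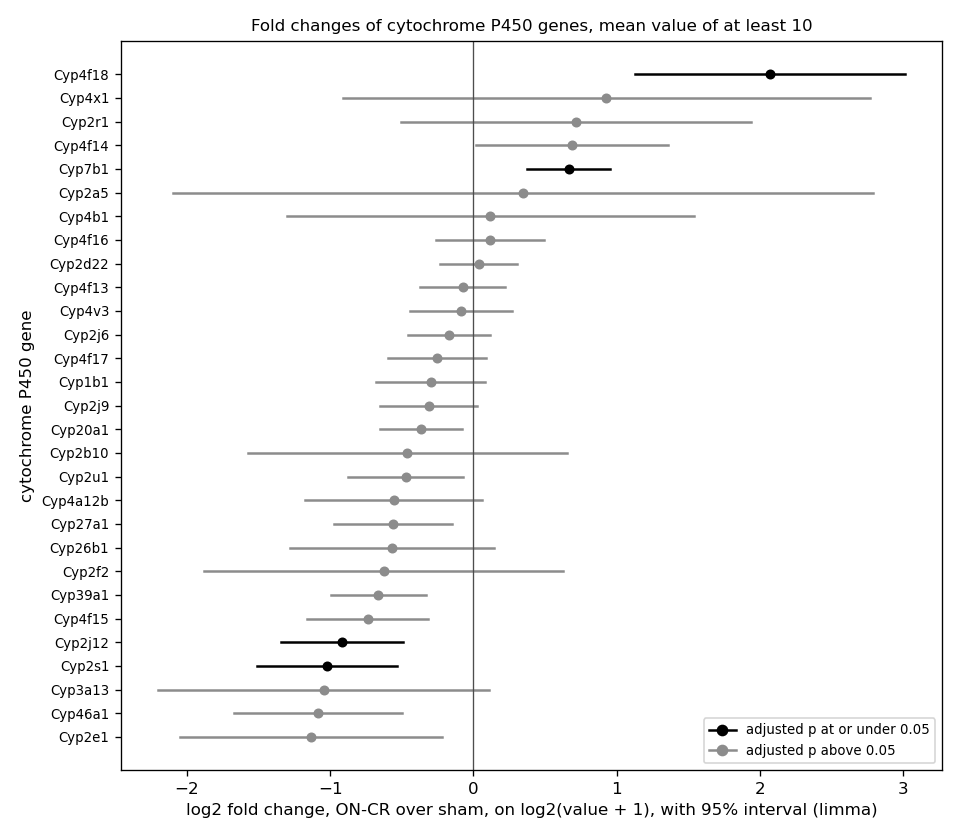
Log2 fold changes (ON-CR over sham, on log2(value + 1)) of the 29 P450 genes with a mean of at least 10, with 95% intervals from limma, in black where the adjusted p was at or under 0.05. The 4 black points are Cyp4f18 and Cyp7b1 above 0 and Cyp2j12 and Cyp2s1 below 0, and 20 of the 29 points lie below 0.

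Levels were compared between genes per kilobase of exon. In sham mice Cyp2f2 stood first at 664 ± 345 (SD, n = 3), a spread so wide that it did not separate from Cyp20a1 at 475 ± 24.7. Cyp2j12, Cyp2j9, Cyp39a1 and Cyp2j6 followed at 339 ± 48.0, 319 ± 44.2, 316 ± 38.2 and 303 ± 41.1 per kilobase and did not differ beyond their spread. Cyp7b1 was at 205 ± 13.7 per kilobase in the sham nerves against 326 ± 30.2 in the crushed nerves (SD, n = 3 per group). Cyp4f18 and Cyp2s1 were the lowest of the 22 genes with a mean of at least 50 in sham mice, at 28.4 ± 14.5 and 28.8 ± 3.92 per kilobase, and did not differ beyond their spread. Cyp4f18 reached 116 ± 47.0 per kilobase after ON-CR.

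Genes that supply or break down haem, other P450 enzymes and regulators complete the 34 partner genes of the table. Of the 34, 3 rose and 2 fell, beside 0.971% of all genes higher and 1.13% lower. The list was chosen with earlier results known, so this count is a description. The median log2 fold change of the 34 was -0.14. Hmox1, which breaks down haem, measured 465, 337 and 380 in the sham nerves against 760, 775 and 964 in the crushed nerves. Hmox1 rose by 1.08 on the log2 scale, with a standard error of 0.16 and a limma adjusted p of 0.00855, with the groups well apart. Tbxas1, the thromboxane synthase of platelets and macrophages, measured 182, 156 and 185 in the sham nerves against 406, 280 and 501 in the crushed nerves, and rose by 1.14, with a standard error of 0.21 and a limma adjusted p of 0.0260. Cyp51, a P450 of cholesterol synthesis that the rule leaves out, measured 3745, 3420 and 2800 in the sham nerves against 1508, 1098 and 1266 in the crushed nerves. It fell by 1.36 on the log2 scale, with a standard error of 0.15 and a limma adjusted p of 0.00264. None of the 12 regulator genes passed the limma test, with a median of -0.02. By limma 3 of the 12 had an unadjusted p at or under 0.05, Ahr and Vdr higher and Nr1h2 lower, beside 15.6% of all genes.

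The 4 called members rested on all 6 mice together. In fits that each omitted 1 mouse, Cyp7b1 and Cyp4f18 passed the test only without ON-CR mouse 5, Cyp2j12 passed without ON-CR mouse 4 or 5, and Cyp2s1 passed in none of the 6 fits. Without ON-CR mouse 6, sham mouse 1, sham mouse 2 or sham mouse 3, 0 members passed the limma test, while 10 to 15 had an unadjusted p at or under 0.05. Calls over all genes fell as well in these fits, from 540 with all mice to 67, 192, 123 and 258 in that order. Without ON-CR mouse 4 or 5 they numbered 462 and 854, and Cyp2s1 was called in neither fit. The cause of the lost member calls was not tested. Cyp46a1 and Cyp26b1 passed only without ON-CR mouse 4. The Y-linked Ddx3y measured 976 in that mouse, against 4.19 and 0 in ON-CR mice 5 and 6. The part of sex in these calls cannot be told apart from that of surgery. The directions of the 4 stayed the same in all 6 fits. Without ON-CR mouse 4 the log2 fold change was 0.69 for Cyp7b1, 2.04 for Cyp4f18, -1.08 for Cyp2j12 and -1.12 for Cyp2s1. Without ON-CR mouse 6 it was 0.59 for Cyp7b1, 1.78 for Cyp4f18, -0.95 for Cyp2j12 and -0.94 for Cyp2s1. The adjusted p by limma ranged from 0.0259 to 0.173 for Cyp7b1, from 0.0126 to 0.234 for Cyp4f18, from 0.0269 to 0.192 for Cyp2j12 and from 0.0505 to 0.196 for Cyp2s1. Among the partners, Cyp51 passed in 6 of 6 fits, Fdx1 and Ch25h in 5, Hmox1 in 4 and Tbxas1 in 1.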

How the data were processed

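RNA of whole optic nerves from 6 mice was sequenced, and groups were taken from the sample labels. The authors quantified reads with DRAGEN against Ensembl gene models of mm10, applied median normalization in Partek Flow 10.0 and ran DESeq2 on gene counts. The deposited unit is a signal, namely estimated counts per gene that the authors had divided by 1 factor per library. Since 65.1% to 67.7% of values were whole reads within 0.01 reads, no count model was run. Depth was 17414091 to 23621006 estimated reads, and 3 reads correspond to a value of 2.66 to 3.18, which covers counting error only. Replicate libraries differed by more than sampling noise (chi-square per degree of freedom 15.1 to 42.6). Labels do not say more of the replicates than the mouse number.

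The test was limma 3.58.1 (R 4.3.3) on log2(value + 1) (mean-variance trend, Benjamini-Hochberg over 25755 genes), which understates changes of low genes. With 3 mice against 3, an exact permutation p cannot go below 0.1. The test was checked on simulated data. Coding stretches, exon lengths and 50-base words came from GENCODE vM21 (GRCm38), to which all 35 members matched. The annotation release differs from the authors'.

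The members, marker lists and partner lists were chosen with earlier results of these data known. Named members were those with an unadjusted p at or under 0.05, a mean of at least 50, or the 5 largest rises or falls at a mean of at least 10, and named partners were those called plus Por and Fdxr. The remaining members, Ahr, Vdr, Nr1h2, Hsd3b7 and Ephx2 were named after their values were seen. Alternatives were TMM, upper-quartile and library-size scaling, filters on low values, pseudocounts, robust moderation, library weights and leaving out each mouse. Brain injury libraries were not analysed here.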

Additional observations from a re-analysis of the deposited data

How the results depend on the processing

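Scaling by library size alone shifted the median of all genes from 0.03 to 0.15 on the log2 scale, gave 2 called members and 0 called lower by limma (9 lower at an unadjusted p at or under 0.05), and moved the members' median to -0.18. Robust moderation gave 1 member called higher, since Cyp4f18 had an adjusted p of 0.0536 there, and it called Cyp39a1, as library weights did. In fits that each omitted 1 mouse, called members numbered 0 to 3, of which 0 to 2 were higher and 0 to 3 lower, against 4, 2 and 2 with all mice. Members past an unadjusted p at or under 0.05 and 2-fold then numbered 3 (without sham mouse 2) to 9 (without ON-CR mouse 4), called partner genes 1 (without ON-CR mouse 6) to 7 (without ON-CR mouse 5), and the members' median was -0.38 to -0.24. Genes called over the whole table ranged from 67 without ON-CR mouse 6 to 854 without ON-CR mouse 5. The cause of these shifts was not tested. No named gene with an adjusted p at or under 0.05 changed direction in any setting run. No paired analysis was possible because the mice carry different numbers in the groups.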
